A study of Danio rerio with 16 samples.

Results

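The genes described here encode matrix proteins of the zebrafish fin fold and of the membrane under its epidermis. They were chosen by symbol, namely and1, and2, and3, fras1, hmcn1, hmcn2, fbn2b and fbln1, and matched to the rows of a table of read counts through the symbols in the authors' deposited tables. The 8 symbols found 9 rows of 32520, because hmcn2 names a pair of them. RNA was sequenced from pools of 9 whole embryos at 48 hours post fertilization (hpf), 1 dish per pool. The groups were a wfikkn1 mutant line exposed to TCDD (n = 4), the same mutant line in DMSO (n = 4), Tropical 5D wild type exposed to TCDD (n = 3) and Tropical 5D wild type in DMSO (n = 3). TCDD, a dioxin that activates the aryl hydrocarbon receptor, was given at 1 ng/mL for 1 h at 4 hpf, and DMSO, the vehicle, at 0.1%. The labels give neither the allele of the mutant line nor the number of founders, and the wild type is named as a strain, not as embryos of the same clutches as the mutants, so that the mutation and any other difference between the lines cannot be told apart.

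The fin fold is a sheet of epidermis folded over a thin matrix, in which rods called actinotrichia give support before bony rays form. Actinodins, encoded by and1, and2 and and3, are proteins of these rods. The folded epidermis is held to the matrix below by its basement membrane, where the Fraser complex (Fras1 with the Frem proteins) and the hemicentins act, and in zebrafish loss of fras1 or hmcn1 gives blistered fins. Hemicentin 2 and fibulin 1 are known to act together at the same junction, and fibrillins form microfibrils; in zebrafish, loss of fbn2b disturbs the notochord and the fin fold. Wfikkn1 is a secreted protein that binds growth factors of the myostatin kind.

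Each library held 20597475 to 26884477 counts, and 20098 genes had enough counts to be tested, the 9 rows among them. Levels are given as CPM, read counts divided by the TMM-adjusted size of their library, and log2 fold changes are given ± SE. A row is called when its p from edgeR's quasi-likelihood test, adjusted over the 20098 genes by Benjamini and Hochberg, lies under 0.05. The targeted gene wfikkn1 had 14 to 22 counts in mutant TCDD libraries against 214 to 520 in wild-type TCDD libraries, and 0 to 4 in mutant DMSO libraries against 10 to 19 in wild-type DMSO libraries. All tested markers of neurons, fast muscle, notochord, epidermis and blood cells had counts in every library, with the muscle marker mylpfa lowest, at 0.0397 to 0.989 CPM. The lowest mylpfa value lay under the CPM of 3 counts (0.110 to 0.145), so it rests on very few reads. In RNA of whole embryos, fewer cells of a type and less RNA per cell cannot be told apart. Libraries also differed along a shared axis within groups, which held 28.8% of the within-group variance over 15143 genes. Scores on it were -28.9 to -11.1 in mutant TCDD, -8.48 to 30.4 in mutant DMSO, 14.8 to 28.1 in wild-type TCDD and -40.3 to 10.7 in wild-type DMSO libraries. Replicate 4 of wild-type DMSO, at -40.3, and replicate 3 of mutant DMSO, at -8.48, scored lowest in their groups.

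The actinodins answered the line and the exposure one by one. The 4 mutant TCDD libraries had 572, 579, 555 and 565 CPM of and1, and the 4 mutant DMSO libraries 535, 548, 523 and 511 CPM. Wild-type TCDD libraries had 418, 444 and 425 CPM of and1, and wild-type DMSO libraries 423, 392 and 402 CPM. Every mutant library thus lay above every wild-type library, whatever the exposure. The log2 change of and1 in mutants over wild type was 0.40 ± 0.06 in TCDD (edgeR adjusted p = 1.29e-04) and 0.38 ± 0.06 in DMSO (edgeR adjusted p = 4.14e-04). TCDD itself gave 0.10 ± 0.06 in mutants (95% interval -0.02 to 0.22) and 0.08 ± 0.06 in wild type (-0.05 to 0.22), and neither was called.

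Its relative and2 went the other way between the lines. It stood at 254, 274, 246 and 250.4 CPM in mutant TCDD libraries and at 213, 226, 208 and 225 CPM in mutant DMSO libraries. In wild type, TCDD libraries had 267, 293 and 282 CPM, and wild-type DMSO libraries 305, 265 and 295 CPM. The mutant DMSO group was the lowest of the groups and overlapped with none of them. In TCDD the lines overlapped, and the log2 change of mutants over wild type, -0.13 ± 0.07, was not called (95% interval -0.28 to 0.02). In DMSO, and2 was lower in mutants by -0.41 ± 0.07 (edgeR adjusted p = 9.02e-04). With TCDD, and2 rose in mutants by 0.23 ± 0.07 (edgeR adjusted p = 0.0103), while wild type had -0.04 ± 0.08. The difference between these effects, 0.27 ± 0.10, was not called (edgeR adjusted p = 0.0874), but was under DESeq2 (adjusted p = 0.0275), with a filter of at least 1 CPM in 4 libraries (edgeR adjusted p = 0.0348) and without replicate 3 of wild-type DMSO (edgeR adjusted p = 0.0458).

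Since and1 was higher and and2 was not, the ratio of their CPM set the lines apart within each library. It was 2.22 ± 0.07 in mutant TCDD and 2.43 ± 0.11 in mutant DMSO libraries (SD, n = 4 each). Wild-type TCDD libraries had 1.53 ± 0.03 and wild-type DMSO libraries 1.41 ± 0.06 (SD, n = 3 each). The lowest mutant ratio was 2.11 and the highest wild-type ratio 1.57. The sum of the 3 actinodins, in CPM, was 893 to 950.4 in mutant TCDD, 771 to 818 in mutant DMSO, 749 to 805 in wild-type TCDD and 699.6 to 764 in wild-type DMSO libraries.

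TCDD raised and3 in both lines. Mutant TCDD libraries had 83.4, 97.1, 92.9 and 83.4 CPM of and3 and mutant DMSO libraries 41.4, 44.0, 39.9 and 45.7 CPM. The wild-type TCDD libraries gave 64.5, 68.0 and 77.6 CPM and wild-type DMSO libraries 35.3, 41.7 and 50.6 CPM. No TCDD library overlapped with a DMSO library, and the 2 DMSO groups had nearly the same mean, 42.8 ± 2.6 in mutants (SD, n = 4) and 42.6 ± 7.7 in wild type (SD, n = 3). The rise was 1.06 ± 0.10 on the log2 scale in mutants, 2.08-fold (edgeR adjusted p = 3.72e-06), and 0.72 ± 0.12 in wild type, 1.65-fold (edgeR adjusted p = 0.00179). The difference of 0.34 ± 0.15 was not called (edgeR adjusted p = 0.176, and 0.0461 without replicate 1 of wild-type DMSO). Under TCDD, and3 was higher in mutants by 0.35 ± 0.11 (edgeR adjusted p = 0.0244). That call was lost without replicate 1 or 3 of wild-type TCDD or replicate 2 or 3 of mutant TCDD (edgeR adjusted p = 0.0578 to 0.108).

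**Figure D1:**
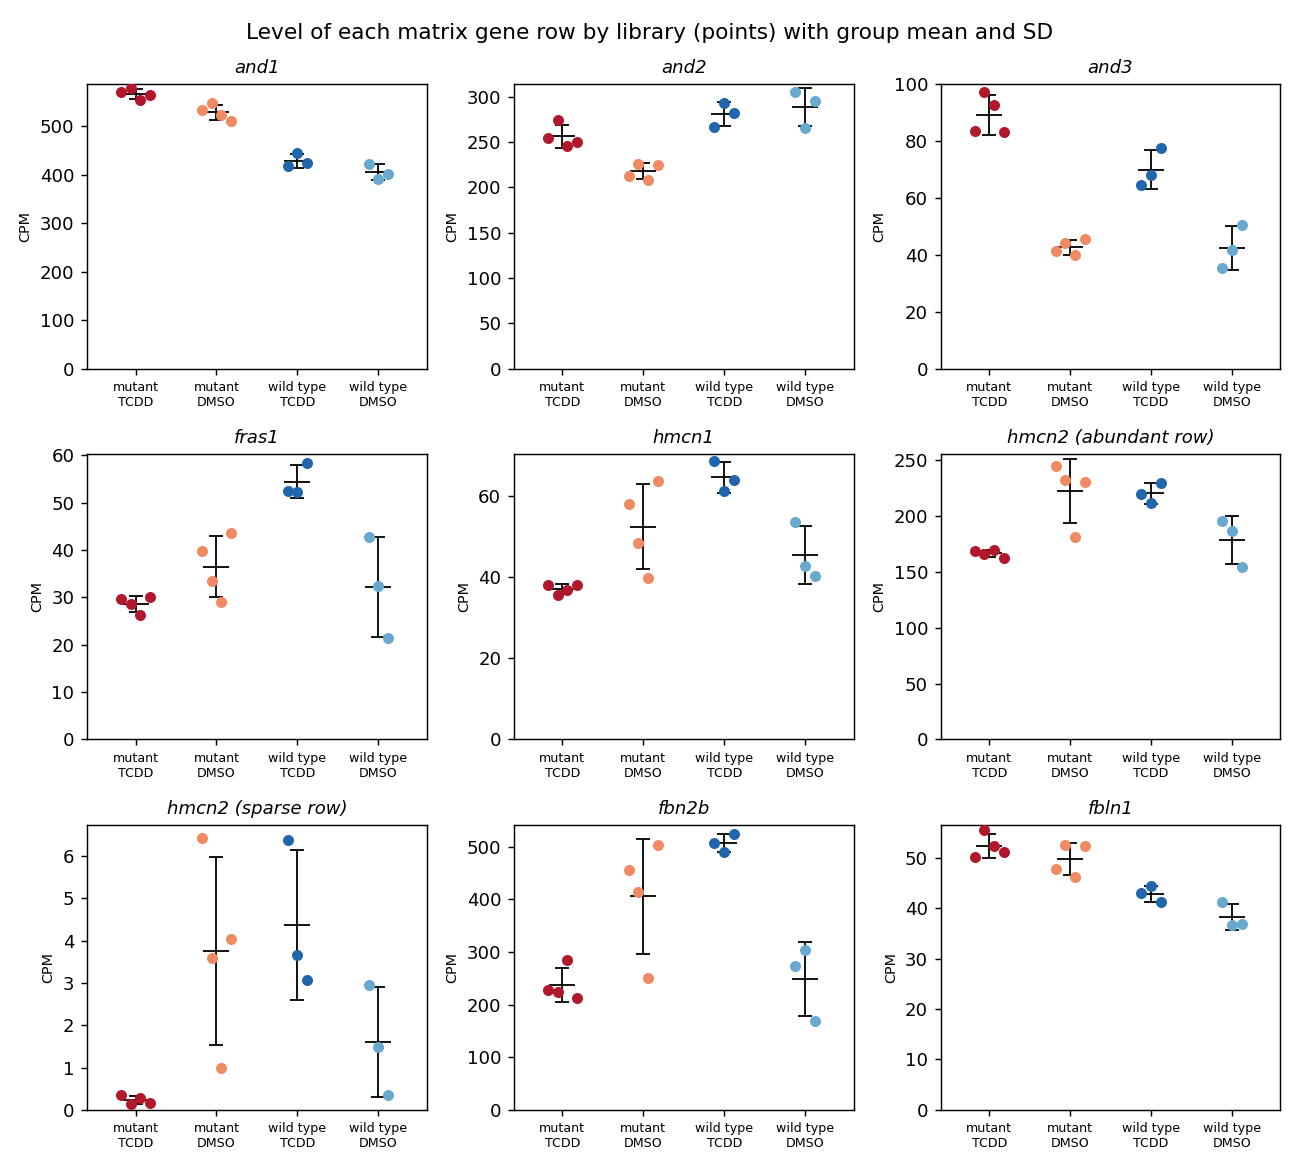
Level of each of the 9 rows in CPM by group, with 1 point per library and the group mean ± SD as a bar (n = 4 for each mutant group, n = 3 for each wild-type group). TCDD libraries lie above DMSO libraries for and3 in both lines; for fbn2b they do so in wild type, at 490.4 to 524 CPM, while in mutants they lie at 213 to 284 CPM and overlap with DMSO.

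**Figure D2:**
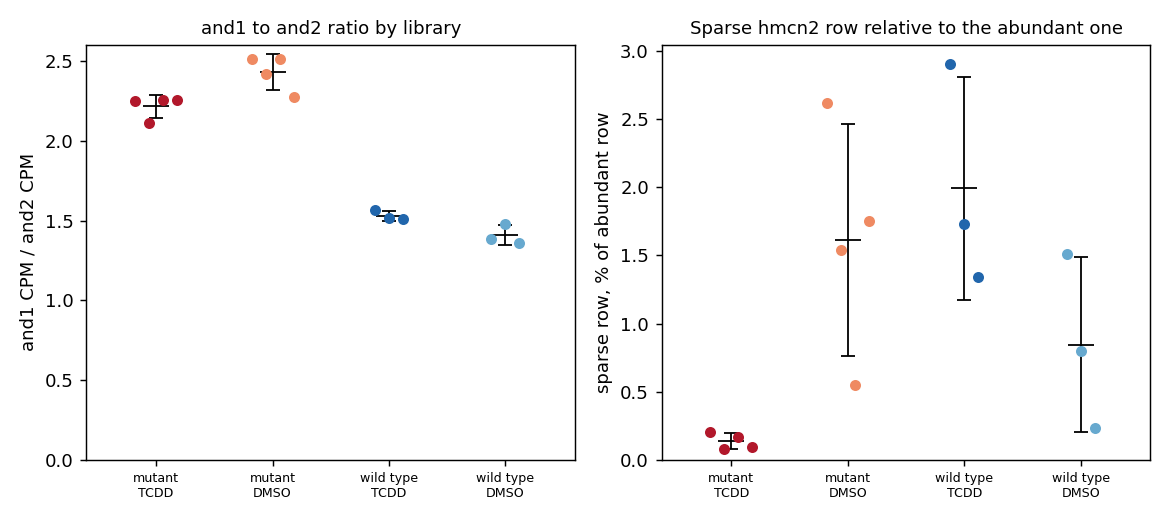
Left, CPM of and1 over CPM of and2 in each library, with the group mean ± SD; mutant libraries lie at 2.11 to 2.52 and wild-type libraries at 1.36 to 1.57. Right, the sparse hmcn2 row as a percent of the abundant one, which is lowest in mutant TCDD libraries, at 0.0797% to 0.207%.

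Of the genes for the epidermal junction, fras1 and both hemicentins had effects of opposite sign in mutants and in wild type. For fras1, which encodes the founding protein of the Fraser complex, mutant TCDD libraries had 29.7, 28.6, 26.3 and 30.0 CPM and mutant DMSO libraries 39.8, 33.6, 29.0 and 43.5 CPM. Wild-type TCDD libraries had 52.5, 52.3 and 58.4 CPM and wild-type DMSO libraries 42.7, 32.4 and 21.5 CPM. In mutants the exposures overlapped, through replicate 3 of DMSO, and in wild type they did not. With TCDD, fras1 had -0.35 ± 0.16 on the log2 scale in mutants, which was not called (edgeR adjusted p = 0.0995), and it rose in wild type by 0.76 ± 0.18 (0.0126). The mutant change was called without replicate 1 or 4 of wild-type DMSO or replicate 3 of mutant DMSO (edgeR adjusted p = 0.0158 to 0.0415), and in a fit to the mutants alone (0.0244). The wild-type change was 0.49 without replicate 4 of wild-type DMSO (edgeR adjusted p = 0.0398) and was not called in a fit to wild type alone (0.0632). The difference of the effects was -1.11 ± 0.24 (edgeR adjusted p = 0.00496). Under TCDD, fras1 was lower in mutants by -0.93 ± 0.17 (edgeR adjusted p = 6.72e-04), and in DMSO it had 0.18 ± 0.17, not called (95% interval -0.18 to 0.54), with 0.45 without replicate 1 and -0.05 without replicate 4 of wild-type DMSO, and 0.28 without replicate 3 and 0.09 without replicate 4 of mutant DMSO.

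The hemicentin gene hmcn1, for a very large matrix protein of immunoglobulin repeats, showed the same order of groups. It stood at 37.9, 35.5, 36.6 and 37.9 CPM in mutant TCDD libraries and at 58.0, 48.3, 39.7 and 63.5 CPM in mutant DMSO libraries. Wild type exposed to TCDD had 68.6, 61.0 and 64.0 CPM and wild-type DMSO libraries 53.5, 42.6 and 40.1 CPM. Exposures overlapped in neither line, with TCDD below DMSO in mutants and above it in wild type. The TCDD change was -0.50 ± 0.12 in mutants (edgeR adjusted p = 0.00448) and 0.51 ± 0.14 in wild type (edgeR adjusted p = 0.0241). The difference was -1.01 ± 0.19 (edgeR adjusted p = 0.00138). Under TCDD, hmcn1 was lower in mutants by -0.80 ± 0.13 (edgeR adjusted p = 2.73e-04), and in DMSO the lines were not told apart (0.21 ± 0.13, 95% interval -0.07 to 0.49; 0.35 without replicate 1 and 0.11 without replicate 4 of wild-type DMSO, and 0.32 without replicate 3 and 0.10 without replicate 4 of mutant DMSO). The wild-type call was lost in a fit to wild type alone (edgeR adjusted p = 0.0662) and without replicate 3 or 4 of wild-type DMSO or replicate 1 or 4 of wild-type TCDD (0.0556 to 0.103).

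Of the 2 rows named hmcn2 in the authors' deposited tables, ENSDARG00000079327 carried 64283 counts in all and ENSDARG00000086060 carried 784. The gene name table used here pairs the symbol only with the second, sparse row. How reads that match both rows were counted is not given in the sources used here, so the split between them is uncertain. The abundant row had 169, 166, 169 and 162 CPM in mutant TCDD libraries and 245, 233, 181 and 231 CPM in mutant DMSO libraries. It had 219.8, 211 and 229.9 CPM in wild-type TCDD libraries and 195, 186 and 155 CPM in wild-type DMSO libraries. Exposures did not overlap in either line, and the directions were opposite. In mutants it fell by 0.42 on the log2 scale (SE 0.09, edgeR adjusted p = 0.00189). In wild type it had 0.30 ± 0.10, which was not called (edgeR adjusted p = 0.0607, 0.0252 without replicate 3 of mutant DMSO), and it was 0.17 without replicate 4 of wild-type DMSO (0.297). The difference was -0.72 ± 0.14 (edgeR adjusted p = 0.00169). Mutants were lower than wild type under TCDD by -0.40 ± 0.10 (edgeR adjusted p = 0.00492) and higher in DMSO by 0.31 ± 0.10 (edgeR adjusted p = 0.0353). The DMSO call was lost without replicate 4 of wild-type DMSO or replicate 1, 2 or 4 of mutant DMSO (edgeR adjusted p = 0.0782 to 0.173) and in a fit to the DMSO groups alone (0.108).

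The sparse row moved in the same directions with a far larger change, on few reads. It had 9, 3, 6 and 4 counts in mutant TCDD libraries and 133, 98, 22 and 98 counts in mutant DMSO libraries. Wild-type TCDD libraries had 143, 92 and 67 counts and wild-type DMSO libraries 69, 32 and 8 counts. In mutants the exposures did not overlap, and replicate 2 of mutant TCDD was at the floor of 3 counts. In wild type the counts overlapped, and in CPM the lowest TCDD library (3.08) lay just above the highest DMSO library (2.95). The fitted log2 change with TCDD was -4.00 ± 0.64 in mutants (edgeR adjusted p = 1.99e-04) and 1.44 ± 0.57 in wild type, where it was not called (edgeR adjusted p = 0.102). At such counts a fitted change depends on the prior count and is no bound. The wild-type change was called without replicate 1 of wild-type DMSO (2.22, edgeR adjusted p = 0.0382) or replicate 3 of mutant DMSO (1.44, 0.0488), and was 0.93 without replicate 4 of wild-type DMSO (0.273). The difference was -5.44 ± 0.87 (edgeR adjusted p = 4.25e-04), and mutants were lower under TCDD by -4.22 ± 0.66 (edgeR adjusted p = 1.80e-04). In DMSO the change of 1.22 ± 0.54 was not called (edgeR adjusted p = 0.135), but was without replicate 1 of wild-type DMSO (2.04, 0.0386) or replicate 3 of mutant DMSO (1.54, 0.0329), and it was 0.74 without replicate 4 of wild-type DMSO (0.400). The sparse row amounted to 0.14% ± 0.06 of the abundant one in mutant TCDD and 1.62% ± 0.85 in mutant DMSO libraries (SD, n = 4 each). It was 1.99% ± 0.82 in wild-type TCDD and 0.85% ± 0.64 in wild-type DMSO libraries (SD, n = 3 each).

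The fibrillin gene fbn2b had the largest difference in TCDD effect between the lines among the 8 abundant rows. It stood at 228, 225, 284 and 213 CPM in mutant TCDD libraries and at 456, 413, 251 and 504 CPM in mutant DMSO libraries. Among wild-type libraries, those in TCDD had 508, 490.4 and 524 CPM and wild-type DMSO libraries 274, 303 and 169 CPM. In wild type the exposures did not overlap. In mutants they overlapped through 1 library, replicate 3 of DMSO. With TCDD, fbn2b fell in mutants by 0.78 on the log2 scale (SE 0.18, edgeR adjusted p = 0.00347) and rose in wild type by 1.03 ± 0.21, 2.04-fold (edgeR adjusted p = 0.00601). The difference was -1.80 ± 0.28 (edgeR adjusted p = 3.61e-04). Under TCDD, mutants were lower by -1.10 ± 0.20 (edgeR adjusted p = 5.28e-04), and in DMSO they were higher by 0.71 ± 0.20 (edgeR adjusted p = 0.0230). The DMSO call was lost in a fit to the DMSO groups alone (edgeR adjusted p = 0.0743) and without replicate 4 of wild-type DMSO (0.48, 0.115) or replicate 1 or 4 of mutant DMSO (0.0633 and 0.0728).

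The fibulin gene fbln1 was called between the lines and not between the exposures. Mutant TCDD libraries had 50.2, 55.6, 52.4 and 51.2 CPM and mutant DMSO libraries 47.9, 52.6, 46.2 and 52.4 CPM. Wild-type TCDD libraries had 43.0, 44.5 and 41.2 CPM and wild-type DMSO libraries 41.2, 36.7 and 36.9 CPM. Every mutant library lay above every wild-type library. Mutants were higher by 0.29 ± 0.08 in TCDD (edgeR adjusted p = 0.0140) and by 0.38 ± 0.08 in DMSO (edgeR adjusted p = 0.00461). Without replicate 4 of wild-type TCDD the call in TCDD was lost (edgeR adjusted p = 0.0563). TCDD gave 0.07 ± 0.07 in mutants (95% interval -0.08 to 0.23) and 0.16 ± 0.09 in wild type (-0.02 to 0.35), neither called. Although fbln1 and hmcn2 act at the same junction, the TCDD effect on fbln1 differed between the lines by -0.09 ± 0.11 (95% interval -0.33 to 0.15), against the -0.72 of the abundant hmcn2 row.

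How many of these rows moved is read against the whole table. With TCDD in mutants, 2 of 9 rows were higher and 4 lower, where 36.1% of all tested genes were called, 17.5% higher and 18.6% lower. Libraries of the exposures did not overlap in CPM for 6 of 9 rows there, against 37.3% of genes. In wild type, 4 of 9 rows were called, each of them higher with TCDD, where 14.6% of genes were called, 8.84% higher and 5.75% lower. There 7 of 9 rows did not overlap in CPM, against 27.6% of genes. Between the TCDD effects of the lines, 5 of 9 rows differed and all 5 were more negative in mutants, where 12% of genes were called, 1.85% more positive and 10.2% more negative. The rows so called were fras1, hmcn1, both hmcn2 rows and fbn2b. Under TCDD, 3 of 9 rows were higher and 5 lower in mutants than in the other line, where 27.6% of genes were called, 10.7% higher and 16.9% lower. No overlap was seen for 8 of 9 rows, against 37.1% of genes. In DMSO, 4 of 9 were higher and 1 lower, where 16.8% of genes were called, 8.21% higher and 8.6% lower. No overlap was seen there for 3 of 9 rows, and1, and2 and fbln1, against 23.6% of genes. The median log2 change of the 9 rows was -0.35 with TCDD in mutants, 0.51 with TCDD in wild type, -0.40 for mutants over wild type in TCDD and 0.31 in DMSO; over all tested genes it was at most 0.03 from 0 in these comparisons. The comparisons of lines and of exposures share their groups, so these counts are not independent. The symbol hmcn2 fills a pair of the 9 rows, and the genes were chosen with earlier results of these data known. The shares over all genes are thus a reference and not a test of the set.

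**Figure D3:**
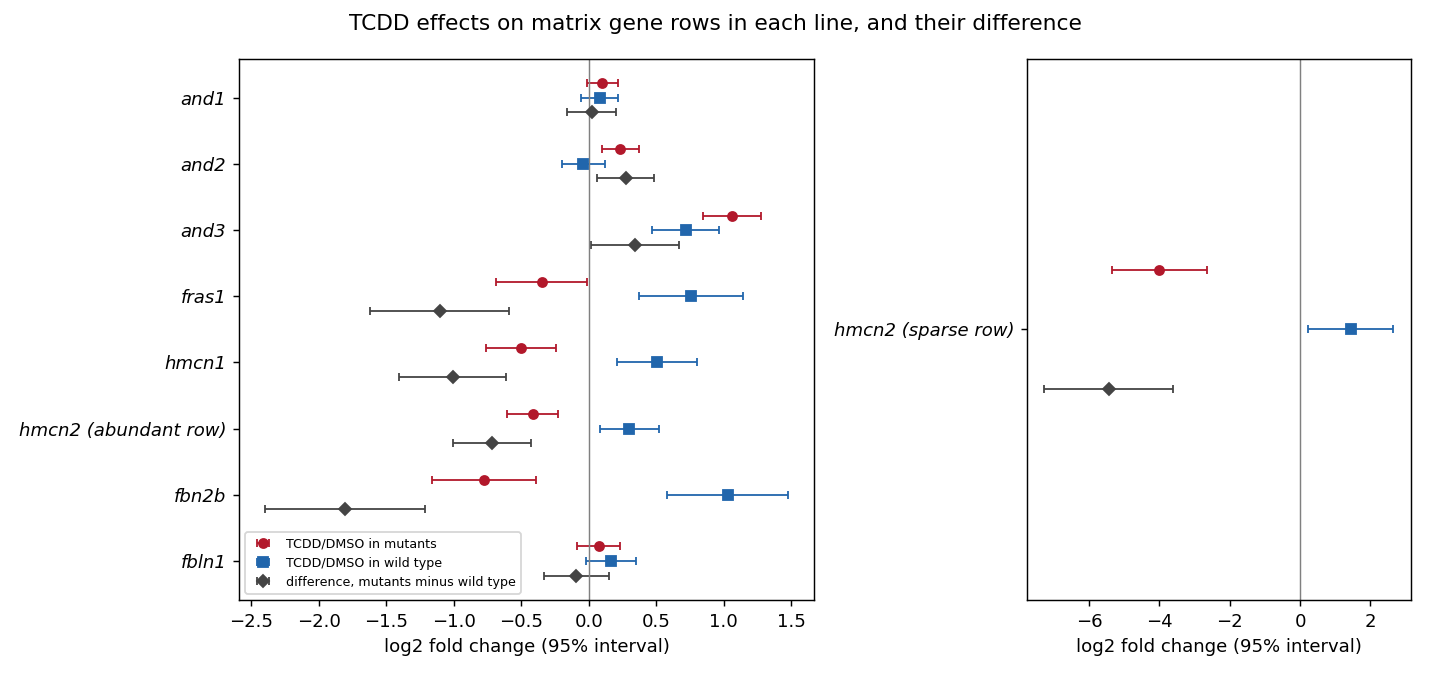
Log2 fold change of TCDD over DMSO in mutants (circles) and in wild type (squares) and the difference, mutants minus wild type (diamonds), each with its 95% interval; the sparse hmcn2 row has its own axis. For fras1, hmcn1, both hmcn2 rows and fbn2b the mutant value lies below 0 and the wild-type value above it, and the difference lies between -5.44 and -0.72.

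**Figure D4:**
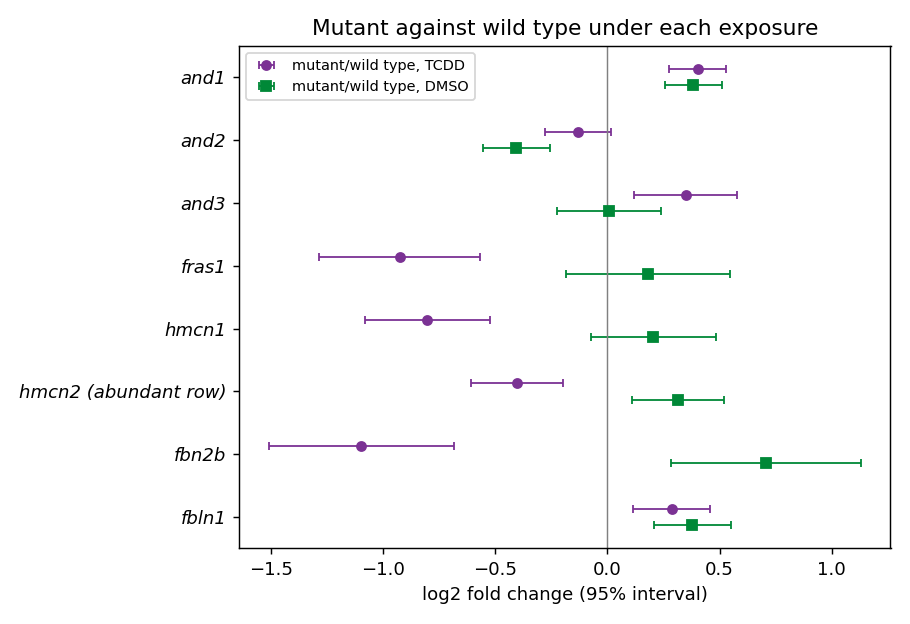
Log2 fold change of mutants over wild type in TCDD (circles) and in DMSO (squares) with 95% intervals for the 8 abundant rows. For fras1, hmcn1, hmcn2 and fbn2b the value lies below 0 in TCDD and above 0 in DMSO, while and1 and fbln1 lie above 0 in both. In DMSO the intervals of fras1 (-0.18 to 0.54) and hmcn1 (-0.07 to 0.49) include 0, and neither was called.

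Of the 5 rows whose TCDD effects differed between the lines, the 4 abundant ones had high weights on the axis, and the sparse hmcn2 row was not among its genes. The weights lay at percentiles 86.3 to 96.8 of all weights for fras1, hmcn1, the abundant hmcn2 row and fbn2b, against 32.5 to 65.0 for and1, and2, and3 and fbln1. Within mutant DMSO, fbn2b was 251 CPM in the library with a score of -8.48 and 504 CPM in the one with a score of 30.4. Within wild-type DMSO it was 169 CPM at a score of -40.3 and 303 CPM at 10.7. The 4 abundant ones were themselves among the genes that set the axis, so with high weights they tend to follow the score within groups by construction. Scores were lower in mutant TCDD than in mutant DMSO libraries and higher in wild-type TCDD than in wild-type DMSO libraries, the same directions as these genes. With the score as a term of the fit, edgeR called the difference for 0 of all 20098 genes, against 2416 as reported above, and so for 0 of the 9 rows (1 had an unadjusted p under 0.05). The differences then were -0.24 for fras1, -0.39 for hmcn1, -0.23 for the abundant and -1.81 for the sparse hmcn2 row and -0.47 for fbn2b (edgeR adjusted p = 0.572 to 0.903). Such a term also takes up part of any group difference along the axis, and what part the axis has in these results was not tested. For TCDD in mutants the term left 2223 genes called, and in wild type 1147. The rise of and3 kept its call with the term, at 0.94 in mutants (edgeR adjusted p = 9.03e-04) and 0.82 in wild type (0.00442), as did that of fbn2b in wild type, at 0.47 (0.0196). Between the lines, and1 kept its call in TCDD (0.38, edgeR adjusted p = 0.0172), and and1 (0.40), and2 (-0.37) and fbln1 (0.34) kept theirs in DMSO (edgeR adjusted p = 0.00167 to 0.0341).

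Replicates also spread unevenly. For fras1 the coefficient of variation of CPM was 5.93% in mutant TCDD against 17.7% in mutant DMSO libraries, and 6.40% in wild-type TCDD against 32.9% in wild-type DMSO libraries. For hmcn1, the abundant hmcn2 row and fbn2b it was likewise smaller in TCDD than in DMSO in each line. For and1 it was between 1.82% and 3.91% in every group. With the DMSO libraries of lowest score left out of both lines, an alternative chosen after seeing the data, the number of rows called was 7 for TCDD in mutants, where fras1 was added (-0.44, edgeR adjusted p = 0.00489), 4 for TCDD in wild type and 5 for the difference. Over the 20388 genes tested in that fit, 7249, 2656 and 2000 were called in the same order. The mutant DMSO library left out, replicate 3, had the lowest fras1 level of its group, at 29.0 CPM. Since fras1 also helped to set the score, its added call follows in part from that choice and is no separate support.

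**Figure D5:**
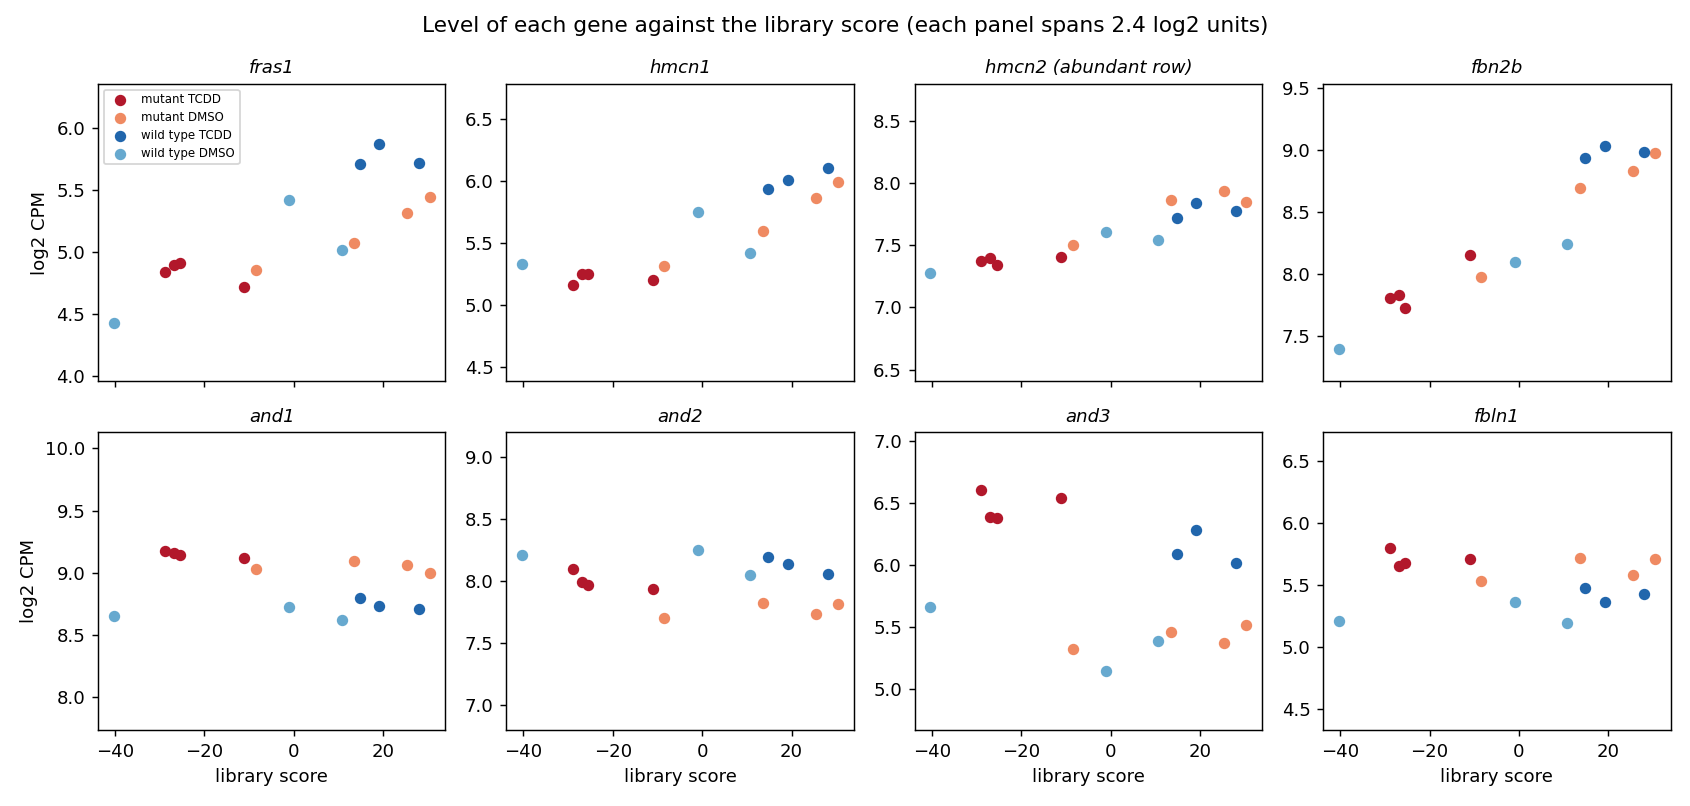
Log2 CPM of the 8 abundant rows against the library score, 1 point per library, colored by group; each panel spans the same range of 2.4 log2 units. Levels of fras1, hmcn1, hmcn2 and fbn2b are low at the left and high at the right. These genes were among those that set the score, so within groups they tend to follow it by construction. At the left lie mutant TCDD libraries and, furthest out at -40.3, replicate 4 of wild-type DMSO. Levels of and1 and fbln1 are higher in every mutant library than in any wild-type library. The level of and3 is higher in every TCDD library than in any DMSO library.

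Other genes of the same structures gave a mixed picture. Of 9 tested Fraser complex genes and partners, 3 were called with TCDD in mutants, each lower, against 36.1% of all tested genes called. In wild type 3 rose and 1 fell, against 14.6% of all genes called. In wild type the risers included frem2b (0.80 ± 0.17, edgeR adjusted p = 0.00670) and frem2a (0.64 ± 0.17, 0.0186), which encode Fras1-related matrix proteins. The difference was called for 4 of 9, all more negative in mutants, against 12% of all genes, with frem2b at -1.13 ± 0.22, frem2a at -1.12 ± 0.22 and the integrin gene itga3b at -0.62 ± 0.15 (edgeR adjusted p = 0.00222 to 0.00899). The median difference over the list was -0.21, against 0.05 over all tested genes. Furina, a furin gene for a protease that cleaves many secreted proteins, fell with TCDD by 0.33 in mutants (SE 0.07, edgeR adjusted p = 0.00245) and by 0.50 in wild type (SE 0.09, 0.00239).

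Of 27 tested genes for laminins, nidogens, collagen IV, perlecan and their partners, 7 rose and 8 fell with TCDD in mutants (36.1% of all genes called), and 7 rose and 1 fell in wild type (14.6% called). The difference was called for 9 of 27, all more negative in mutants, against 12% of all genes, and the list median was -0.10. Perlecan, hspg2, a large proteoglycan gene, stood at 65.2 ± 7.5 CPM in mutant TCDD and 140.0 ± 44.9 CPM in mutant DMSO (SD, n = 4 each), and at 184.7 ± 42.5 CPM in wild-type TCDD and 75.4 ± 18.8 CPM in wild-type DMSO (SD, n = 3 each). Its difference was -2.40 ± 0.31 (edgeR adjusted p = 1.99e-04), and that of col4a1, a collagen IV chain, was -1.50 ± 0.21 (2.10e-04). Not all of the list followed: nid2a, a nidogen gene, rose with TCDD in mutants by 0.58 ± 0.06 (edgeR adjusted p = 1.03e-05). Of 17 tested fibulin, fibrillin and elastic fibre genes, 2 rose and 2 fell with TCDD in mutants, and 2 rose in wild type, both no larger a share than the 36.1% and 14.6% called over all genes. From this list, the fibrillin gene fbn2a was lower in mutants under TCDD by -1.55 ± 0.23 (edgeR adjusted p = 1.08e-04) and in DMSO by -0.77 ± 0.23 (0.0271). The difference was called for 1 of 17, the lysyl oxidase-like gene loxl1 (-0.71 ± 0.15, edgeR adjusted p = 0.00371), against 12% of all genes.

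Among 13 tested genes for fibrillar collagens and their processing, 6 rose and 4 fell with TCDD in mutants (36.1% of all genes called), and 1 rose and 2 fell in wild type (14.6% called). The difference was called for 1 of 13, the collagen gene col5a1 (-0.32 ± 0.09, edgeR adjusted p = 0.0310), against 12% of all genes. The gene bmp1a, for a protease that trims procollagens and that is needed for the shape of the zebrafish fin, had 82.2 ± 4.3 CPM in mutant TCDD and 38.5 ± 2.0 CPM in mutant DMSO (SD, n = 4 each). Wild type had 77.0 ± 5.4 CPM in TCDD and 35.1 ± 1.5 CPM in DMSO (SD, n = 3 each). Its rise was thus nearly alike in size, 1.09 ± 0.07 in mutants and 1.13 ± 0.09 in wild type. Like and3, bmp1a rose in both lines. The chaperone gene serpinh1b, which serves collagen folding, fell in both, by 0.84 in mutants (SE 0.15, edgeR adjusted p = 5.14e-04) and by 0.78 in wild type (SE 0.17, 0.00850). Of 22 tested genes of the fin fold epidermis and mesenchyme, 7 rose and 3 fell in mutants (36.1% of all genes called), and 3 rose and 2 fell in wild type (14.6% called). The homeobox gene msx2b rose with TCDD, by 0.78 ± 0.10 in mutants (edgeR adjusted p = 4.58e-05) and by 0.60 ± 0.12 in wild type (0.00497). The matrix link protein gene hapln1a fell by 0.52 in mutants (SE 0.06, edgeR adjusted p = 2.84e-05) and by 0.32 in wild type (SE 0.07, 0.00955). The difference was called for 0 of the 22 by edgeR, against 12% of all genes, with 4 at an unadjusted p under 0.05. DESeq2 called it for 1, and the list median was 0.11.

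Levels of cell type markers differed between groups as well. The summed level of 9 tested epidermis markers was 4385 to 5016 CPM in mutant TCDD, 4031 to 4277 CPM in mutant DMSO, 4907 to 8023 CPM in wild-type TCDD and 5478 to 10369 CPM in wild-type DMSO libraries. Most of this spread lay in krt4, a keratin gene of the outer layer, which ran from 992 to 6767 CPM over all libraries. Of these epidermis markers 3 were called with TCDD in mutants, each lower, near the 36.1% called over all genes, and in wild type 1 rose and 2 fell, against 14.6% called over all genes. The integrin gene itgb4 and the cell envelope gene evpla had differences of the TCDD effects of -0.93 ± 0.18 and -0.65 ± 0.13 (edgeR adjusted p = 0.00157 and 0.00271). The claudin gene cldni had one of 1.02 ± 0.29 (edgeR adjusted p = 0.0295), at a low level of 1.39 to 3.26 CPM over all libraries. Of the 9 markers 2 were called in each direction, with a list median of 0.28. Over all genes 12% were called, 1.85% more positive and 10.2% more negative. Between the lines, 2 of the 9 were higher and 4 lower in mutants in TCDD, where 27.6% of all genes were called, and 3 were lower in DMSO, where 16.8% were called. The summed level of 6 tested notochord markers was 584 to 658 CPM in mutant TCDD, 629.8 to 678 CPM in mutant DMSO, 674 to 679.7 CPM in wild-type TCDD and 783 to 945 CPM in wild-type DMSO libraries. The summed level of 6 tested erythroid markers was 856 to 1029 CPM in mutant TCDD, 625 to 781 CPM in mutant DMSO, 1247 to 1778 CPM in wild-type TCDD and 1306 to 1669 CPM in wild-type DMSO libraries, so that the lines did not overlap. The summed level of 5 tested neuron markers was 2910.2 to 3101 CPM in mutant TCDD, 3426 to 3561 CPM in mutant DMSO, 3155 to 3402 CPM in wild-type TCDD and 3209 to 3742 CPM in wild-type DMSO libraries. For 7 fast muscle markers it was 18227 to 19994 CPM in mutant TCDD, 15382 to 17611 CPM in mutant DMSO, 16869 to 20853 CPM in wild-type TCDD and 16387 to 19886 CPM in wild-type DMSO libraries. Within mutants the sums of neuron, fast muscle, epidermis and erythroid markers did not overlap between the exposures, while those of notochord markers did. The neuron sum was lower in TCDD and the fast muscle, epidermis and erythroid sums were higher. Of the epidermis markers, however, 0 were called higher there and 3 were called lower. The abundant krt4, not called there, had a mean of 1554 CPM in mutant TCDD and 1023 CPM in mutant DMSO. Of all single genes, 37.3% did not overlap in this comparison. Of the 5 neuron markers 1 rose and 3 fell, where 36.1% of all genes were called. Of the 7 fast muscle markers 2 rose and 5 were not called, and of the 6 erythroid markers 4 rose. No tested marker of these lists was at 0 in any library. The part that such tissues have in the results above was not tested.

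The genes most like each row were found by the root mean square difference of log2 CPM over the 14 libraries, each gene centred on its own mean. The nearest to and1 was fbln1, and the nearest to fbln1 was and1, with a difference of 0.071 log2 units, where the median over all genes with a name was 0.317 for and1. Others were almost as near, with sgms1 at 0.074 from and1 and epc1a at 0.078 from fbln1. For and3 the nearest was tuba8l2 (0.092), for and2 vps18 (0.068), for fras1 celsr1a (0.137), for hmcn1 cldn19 (0.106) and for fbn2b nsd3 (0.112). The abundant hmcn2 row was nearest to kmt2ba (0.080), and the sparse one to tgfbr1b (0.438, with 1.77 as the median over genes). Among the rows themselves, fras1 and hmcn1 differed by 0.175, hmcn1 and the abundant hmcn2 row by 0.181, and the 2 hmcn2 rows by 1.53 log2 units.

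In the authors' deposited tables of significant genes for the 4 pairwise comparisons, 22 of the 36 entries possible for the 9 rows were listed, and all 22 were called here. Here 1 more was called, fbn2b for mutants over wild type in DMSO. Where an entry was listed, the log2 ratio in the authors' deposited table and the value found here were at most 0.0074 apart.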

How the data were processed

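Counts per gene in 14 libraries were deposited by the authors as raw read counts; the submitters' processing notes name HTSeq 0.12.4, SAMtools 1.10, HISAT2 2.2.0, edgeR, cutadapt 1.8.1 and assembly GRCz11; roles, annotation release and strand setting are not given in the sources used here. Per the labels' protocols, libraries were stranded and poly(A)-selected, and read as 100 bp single ends. In wild type, replicate 2 of either exposure was not among these 14 libraries and so was not used here. The description of the wild-type TCDD sample titled replicate 2 gives another replicate number. Groups and replicate numbers were taken from the sample titles. The authors' deposited tables hold log2 ratios, log2 mean CPM, a p-value with its FDR and an F statistic, a score the authors deposited, for listed genes only; they served for names and the closing comparison of calls.

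Here R 4.3.3 with edgeR 4.0.16 was used: filterByExpr, TMM, 1 mean per group over all 14 libraries and quasi-likelihood F tests, adjusted over 20098 genes. SE was taken as the fold change (log2) divided by √F. CPM of 3 counts is 0.110 to 0.145. Names came from the authors' tables (10902 IDs), then a name table (18822); 2796 IDs had none, and a list name without an exact match was matched regardless of case where 1 row fitted. The axis was the leading singular vector of CPM in log2 (prior count 2), group means subtracted, over genes with a mean of at least 1, these rows included; scores keep group differences. Named from a list were up to 3 called genes of smallest adjusted p per comparison, and for likeness the nearest of 3 per row, with the next nearest for and1 and fbln1. The genes and lists were chosen with earlier results of these data known. Same-numbered replicates are not stated to share a batch, so no pairing was assumed. Of 19 same-numbered pairs, 5 correlated above 0.1 in their deviations from group means. Pairs of unlike number were not compared, so this count cannot tell a shared batch from none. Pools came from separate dishes. Alternatives were RLE scaling, other filters, DESeq2 1.42.0, only the groups compared, a replicate block, replicates 1 and 2 against 3 and 4, the score and each library left out. Gene length and sequence were not analysed here.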

Additional observations from a re-analysis of the deposited data

Results flagged for a closer look

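The effect of TCDD differed between the lines, by edgeR's test of the difference itself, for 5 of the 9 rows. Over all tested genes 12% were called, 1.85% more positive and 10.2% more negative in mutants. With the library score as a term, the difference was called for 0 of all 20098 genes and so for 0 of the 9 rows. The score keeps group differences, so such a term also takes up part of any group difference along the axis. The loss of calls thus decides nothing about these rows, and what part the axis has was not tested. On the log2 scale, mutants minus wild type, the difference was -1.11 for fras1, -1.01 for hmcn1, -0.72 for the abundant hmcn2 row, -5.44 for the sparse hmcn2 row and -1.80 for fbn2b. No single mutant library stood apart from the other 3 of its group by Dixon's test in any of the 18 sets of 4 CPM values.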

How the results depend on the processing

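The number of the 9 rows called was 6 (TCDD effect, mutants), 4 (TCDD effect, wild type), 8 (lines in TCDD), 5 (lines in DMSO) and 5 (difference of the effects). With the library score as a term these were 1, 2, 1, 3 and 0 by edgeR (2, 3, 5, 4 and 1 at an unadjusted p under 0.05), while calls over all 20098 genes fell to 2223, 1147, 1358, 1796 and 0, against 7253, 2933, 5552, 3378 and 2416 without the term, and fbn2b with TCDD in mutants then had 0.0063 in place of -0.78; what part the score has in this was not tested. With only the groups compared in the fit the rows called were 7, 2, 8 and 3, while calls over all tested genes were 8208, 1170, 5809 and 2172. The difference needs all groups. Leaving out 1 library gave 6 to 7, 3 to 6, 7 to 8, 3 to 6 and 5 to 6 in the order above. Calls over all tested genes then ran from 5832 to 7708, 1856 to 3017, 4039 to 6130, 2064 to 3504 and 1802 to 2761. Of 630 single log2 changes 16 lost and 10 gained a call, and 6 changed sign, none of them of a change that was called. RLE scaling and no filter changed no call among 45 values. DESeq2 and the stricter filter each added 1. The replicate block, run although no pairing of the samples is stated, gave 6, 5, 8, 4 and 5. Over all 20098 genes its calls were 6855, 2492, 4744, 2751 and 2218. Among the rows, the block added the sparse hmcn2 row with TCDD in wild type (1.57) and lost the abundant one for the lines in DMSO (0.30). A term for replicates 1 and 2 against 3 and 4 added the same call of the sparse row (1.54). Depth limits the sparse hmcn2 row, with 3 to 9 counts in each mutant TCDD library.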
